A study of Mus musculus with 4 samples.

Results

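The 4 pore-forming AMPA receptor subunits, Gria1, Gria2, Gria3 and Gria4, and 3 of their auxiliary subunits, the transmembrane AMPA receptor regulatory proteins (TARPs) Cacng2, Cacng3 and Cacng8, were examined in nuclei of the adult mouse cortex. They were chosen by gene symbol, and are 7 of the 32285 genes counted. All were wild-type C57BL/6J mice, of which those treated had received risperidone, an antipsychotic that blocks dopamine and serotonin receptors, at 4 mg/kg intraperitoneally each day for 21 days from postnatal day (PND) 22, and the controls had received saline. After a drug-free period the mice were killed at PND 90. Right hemicortices of 5 males and 5 females per condition went into a single pool, whose DAPI-sorted nuclei were run on 2 Chromium lanes, so that the pool is the replicate, n = 1 per condition, and the 2 lanes are technical repeats. No test between the conditions is therefore possible, a difference between the pools cannot be told apart from the treatment, and the intervals given at 95% cover counting error only.

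AMPA receptors are tetramers that carry most fast excitatory transmission in the brain. Their subunit make-up sets conductance, kinetics and permeability to calcium: receptors with the Gria2 product are largely impermeable to calcium, because Gria2 RNA is edited at 1 codon of the pore, whereas receptors without it let calcium through and are typical of many fast-spiking interneurons. TARPs bind the receptor in the membrane, slow its closing and, through a C-terminal tail that binds PSD-95, hold it at the postsynaptic density. Cacng2 encodes stargazin, Cacng3 a forebrain TARP, and Cacng8 a TARP abundant in hippocampus that is known to stabilize receptors outside the synapse.

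The coding sequences of the pore show how close the 4 subunits are at the place where the edited codon distinguishes Gria2. The following lines give 51 bases of the coding strand from GENCODE transcripts on GRCm38, spanning an exon junction, with the codon of the Q/R site in capitals.
Gria1: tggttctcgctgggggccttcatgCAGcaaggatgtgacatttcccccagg
Gria2: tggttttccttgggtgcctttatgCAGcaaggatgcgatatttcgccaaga
Gria3: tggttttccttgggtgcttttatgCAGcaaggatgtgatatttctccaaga
Gria4: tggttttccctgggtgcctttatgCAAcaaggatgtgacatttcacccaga
The codon is number 600 of 907 in Gria1 (chr11:57243094-57243096, plus strand), 607 of 883 in Gria2 (chr3:80706911-80706913, minus strand), 612 of 888 in Gria3 (chrX:41610265-41610267, plus strand) and 608 of 902 in Gria4 (chr9:4464137-4464139, minus strand). The genome holds CAG there in Gria1, Gria2 and Gria3 and CAA in Gria4, both of which encode glutamine. Gria2 and Gria3 shared 48 of the 51 bases, and Gria1 and Gria2 shared 41. Counts per gene do not read whether the RNA was edited.

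The 3 TARPs end in the codons of the tail that binds PDZ domains, which are shown for that reason in capitals at the end of 39 bases of their last coding exon, exon 4 of 4.
Cacng2: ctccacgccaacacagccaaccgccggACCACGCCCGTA
Cacng3: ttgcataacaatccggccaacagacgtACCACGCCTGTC
Cacng8: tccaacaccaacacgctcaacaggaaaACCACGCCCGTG
These stretches lie at chr15:77995152-77995190 on the minus strand, chr7:122768805-122768843 on the plus strand and chr7:3415564-3415602 on the plus strand. Over the 39 bases, Cacng2 shared 26 with Cacng3 and 26 with Cacng8.

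The genes differ much in size, from the 25 kb of Cacng8 (chr7:3390683-3415648, plus strand) to the 378 kb of Gria4 (chr9:4417896-4796234, minus strand). The other spans on GRCm38 are chr11:57011387-57330244 for Gria1 (plus strand, 319 kb), chr3:80681450-80802835 for Gria2 (minus strand, 121 kb), chrX:41400854-41678601 for Gria3 (plus strand, 278 kb), chr15:77991748-78120028 for Cacng2 (minus strand, 128 kb) and chr7:122670492-122769393 for Cacng3 (plus strand, 98.9 kb). Intronic reads were counted in these nuclei, so a longer gene can yield more unique molecular identifiers (UMIs) at the same number of transcripts. Levels of different genes are therefore compared only per kb. The level of a gene is given as CPM, its share of all UMIs of the same class and lane scaled to a common total.

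The lanes held 119736937 to 203675013 UMIs in 23450 to 29986 nuclei, and 21099 to 26385 nuclei per lane were used after filtering. The median of the used nuclei was 3000 and 3715 UMIs in saline and 5430 and 7475 UMIs in risperidone, and any pair of lanes shared 160 to 221 barcodes. The shallowest nucleus listed had 1364 and 1630 UMIs in the saline lanes and 500 in either risperidone lane. The nuclear transcript Malat1 took 2.11% and 2.12% of the UMIs in saline and 3.41% and 3.26% in risperidone. Nuclei were put in classes by UMIs of marker genes, so that each class is to be read as, for example, PV-IN-like. The classes held 38853 glutamatergic neurons, 1653 PV-INs and 1255 Sst-INs. In the PV-INs 4 of 6 PV-IN markers (Btbd11, Pvalb, Eya4 and Mybpc1), and in the Sst-INs 4 of 7 Sst-IN markers (Elfn1, Grin3a, Sst and Crhbp), were among the 10 leading genes. The same markers had set the classes, so this is no independent support for their names. Tmem132c, an Sst-IN marker, was also among the 10 in PV-INs, and Moxd1, an L6b marker, in Sst-INs. The L5 ET class also held 839 CPM of Tshz2, a marker of the L5/6 NP class, where it was at 3502 CPM. Nuclei with markers of striatal spiny projection neurons (1911) show that the tissue labelled cortex held some striatum. Of the saline nuclei 55.3% and 49.9%, and of the risperidone nuclei 34.1% and 28.5%, could be given no class, so class sizes are not compared, and a value of a class describes the nuclei whose markers could be read. In such sums, fewer nuclei that express a gene and less RNA of it per nucleus cannot be told apart.

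Gria1, which encodes the subunit central to synaptic potentiation, was highest in Sst-INs and PV-INs, whereas Vip-INs and Lamp5-INs lay among the glutamatergic types. In the saline pool it stood in Sst-INs at 4697 CPM (4627 and 4743 CPM in the 2 lanes), followed by PV-INs at 3345 CPM and striatal spiny projection neurons at 2399 CPM. Among glutamatergic types it ran from 1818 CPM in the claustrum class and 1703 CPM in L5 ET down to 790 CPM in L4/5 IT neurons. Neighbours in this order did not overlap in their lane ranges, or in counting intervals of the 2 lanes pooled, over the first 7 classes, whereas L6b, L6 CT and Vip-INs (1344, 1342 and 1330 CPM) did. The highest class, Sst-INs, exceeded the lowest, endothelial nuclei, 17.6-fold, and the non-neuronal classes lay at or under 540 CPM. Microglia, with 7 and 5 nuclei in the saline lanes, are left out of all orders and comparisons.

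Gria2 was the most even of the 7 genes in the saline pool. Its saline level ranged only 2.14-fold, from 1336 CPM in L6 CT neurons to 623 CPM in mural cells and fibroblasts. Astrocytes stood second at 1292 CPM, below L6 CT neurons by lane but with overlapping counting intervals, and oligodendrocyte precursors reached 1094 CPM. The 4 interneuron classes lay together at 829 to 893 CPM, below all 8 glutamatergic types. The counting intervals of neighbours among them overlapped, whereas the lanes of PV-INs (809 and 857 CPM) lay below those of the other 3. In the risperidone pool Gria2 spread wider, from 1605 and 1600 CPM in L6 CT neurons to 297 and 332 CPM in endothelial nuclei (35 and 61 UMIs).

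Gria3 was highest in L6 CT (1483 CPM), L2/3 IT (1480 CPM) and L5 ET neurons (1294 CPM), of which the first pair overlapped. In L4/5 IT neurons it was at 534 CPM. Sst-INs held 1224 CPM and PV-INs 964 CPM, whereas Vip-INs, at 320 CPM (313 and 326 CPM in the lanes), had the lowest level of the 18 classes and types, below astrocytes at 348 CPM by lane but with overlapping counting intervals.

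Gria4, the subunit of fast receptors, followed another order. The claustrum class led at 2351 CPM, PV-INs followed at 2074 CPM (1983 and 2138 CPM), and L4/5 IT neurons (1613 CPM) and Sst-INs (1611 CPM) overlapped. L6 CT, L5 ET and L6b neurons were low among neurons at 681, 606 and 512 CPM. The L4/5 IT neurons, lowest of the glutamatergic types in Gria1 and Gria3, were thus second among them in Gria4. Oligodendrocyte precursors had 1116 CPM, and astrocytes had the lowest level, 377 CPM.

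The TARPs also differed in order, and overlap in these orders refers to lanes or counting intervals. Cacng2 was highest in PV-INs at 447 CPM (428 and 460 CPM), and the next class, deep-layer IT neurons, lay at 298 CPM without overlap. Other neurons spanned 282 to 168 CPM with overlapping neighbours, and the non-neuronal classes lay at 52.6 CPM or less. Cacng3 was highest in L2/3 IT neurons at 602 CPM (599 and 606 CPM), followed by the claustrum class (395 CPM) and Sst-INs (355 CPM), which overlapped. It was low in the other interneurons, with 119 CPM in Lamp5-INs, 115 CPM in PV-INs and 109 CPM in Vip-INs. Cacng8 led in Sst-INs at 138 CPM (135 and 143 CPM), with L5 ET neurons (114 CPM), astrocytes (103 CPM) and Lamp5-INs (99.5 CPM) next and overlapping. In L4/5 IT neurons it was at 40.0 CPM.

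**Figure D1:**
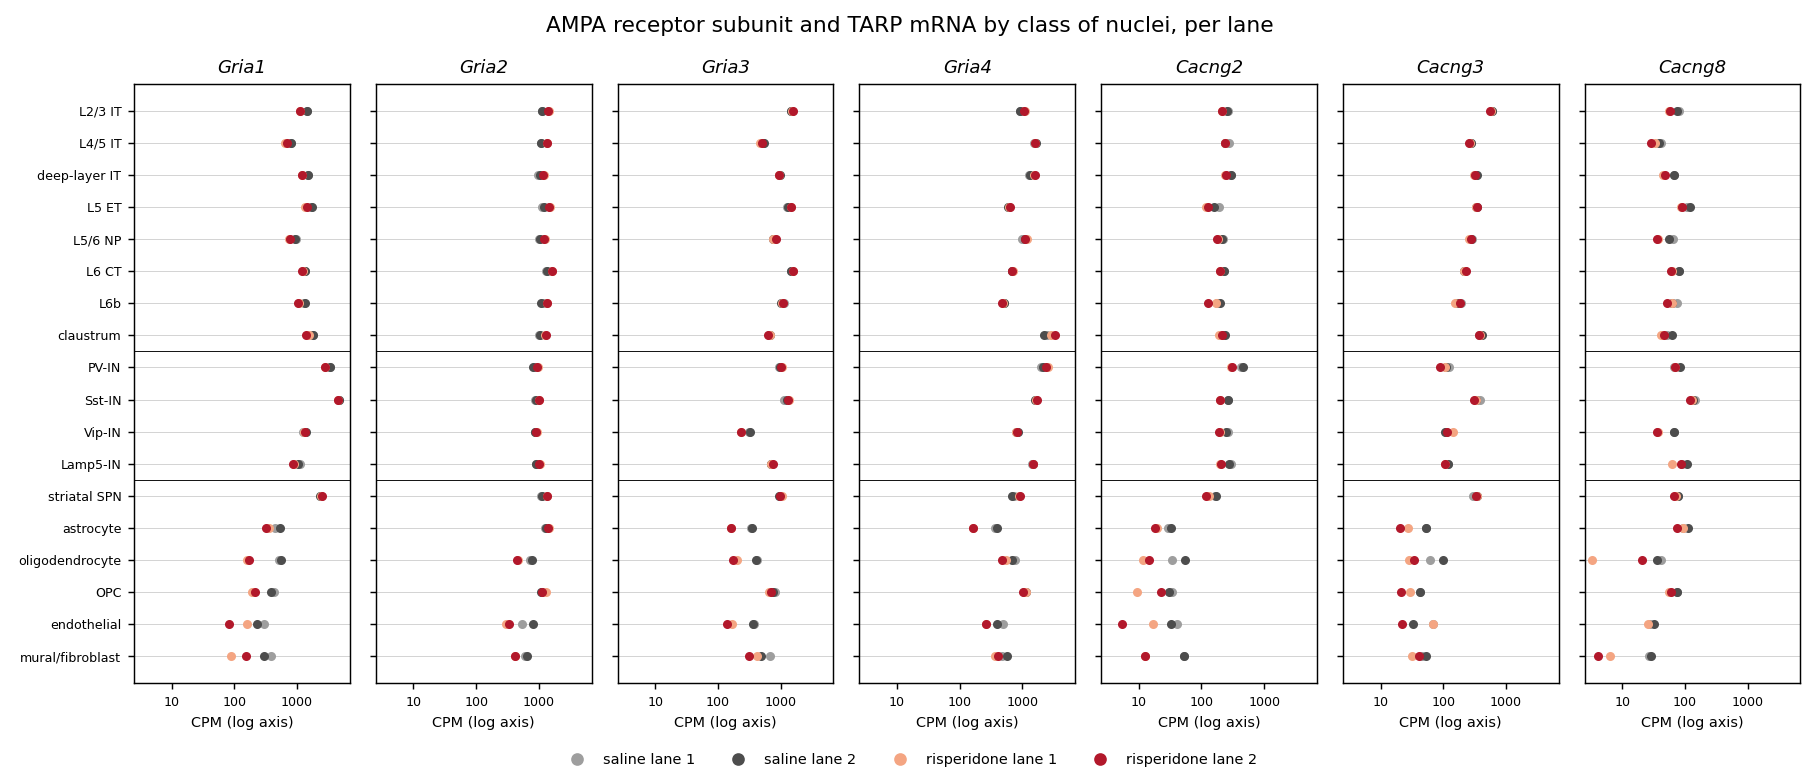
Level of each gene in CPM (log axis) in every class and type of nuclei, with 1 point per lane, saline in greys and risperidone in orange and red. Gria1 peaks in Sst-INs (4697 CPM in saline), Gria4 in the claustrum class and PV-INs, Cacng2 in PV-INs and Cacng3 in L2/3 IT neurons, while Gria2 is the most even in saline.

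Some of these low values include RNA of other cells. From 12 oligodendrocyte and glutamatergic markers, 13.4% and 14.2% of the UMIs of saline PV-INs were estimated to come from other nuclei, against 7.75% and 8.53% with risperidone. At those shares, 36.7% and 41.9% of the Cacng3 UMIs counted in saline PV-INs, and 23.7% and 32.2% in risperidone PV-INs, would be foreign. For Gria1 in PV-INs the shares were 6.83% and 7.24% in saline and 3.70% and 4.19% in risperidone. In glutamatergic neurons the estimate, from 7 oligodendrocyte markers alone, was alike in all lanes, 28.3% to 29.7%. RNA of other cells was given the profile of all nuclei of the lane, which includes the class itself. For glutamatergic neurons the part taken out thus includes their own RNA.

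Per kb of gene span, Gria2 was the most abundant of the 4 subunits in glutamatergic neurons, at 9.14 CPM per kb in saline, against 4.60 for Gria1, 3.99 for Gria3 and 2.84 for Gria4. Gria2 was 44.4% of the 4 together. In PV-INs and Sst-INs Gria1 came first, with 10.5 and 14.7 CPM per kb against 6.83 and 7.32 for Gria2, which made up 26.0% and 23.8% of the 4. In Vip-INs and Lamp5-INs the Gria2 share was 49.0% and 43.2%, within the 37.3% to 50.9% of the glutamatergic types. The interneuron classes thus differed among themselves, and the low Gria2 share was found in PV-INs and Sst-INs. In astrocytes Gria2 made up 73.5%, against 31.8% per kb of merged exons. The order within a class depended on the length used: per kb of merged exons, Gria1 came first in glutamatergic neurons too, with 243 CPM per kb and 40.7%, and Gria2 last with 71.3 CPM per kb and 11.9%. The difference between classes did not depend on it, because Gria2 was at 5.2% (PV-INs) and 4.7% (Sst-INs) on that scale.

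Among the TARPs, per kb of span in saline, Cacng3 made up the largest part in glutamatergic neurons (44.6%), Cacng2 in PV-INs (45.1%) and Cacng8 in Sst-INs (49.5%). Within the glutamatergic types the Cacng3 share ran from 54.3% in L2/3 IT neurons to 29.7% in L6b neurons, and that of Cacng8 from 24.9% in L4/5 IT to 48.9% in L5 ET neurons. Astrocytes held Cacng8 at 84.0% of the 3. Per kb of merged exons Cacng3 came first in glutamatergic neurons (64.8%) and Sst-INs (54.5%), and Cacng2 in PV-INs (52.2%).

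**Figure D2:**
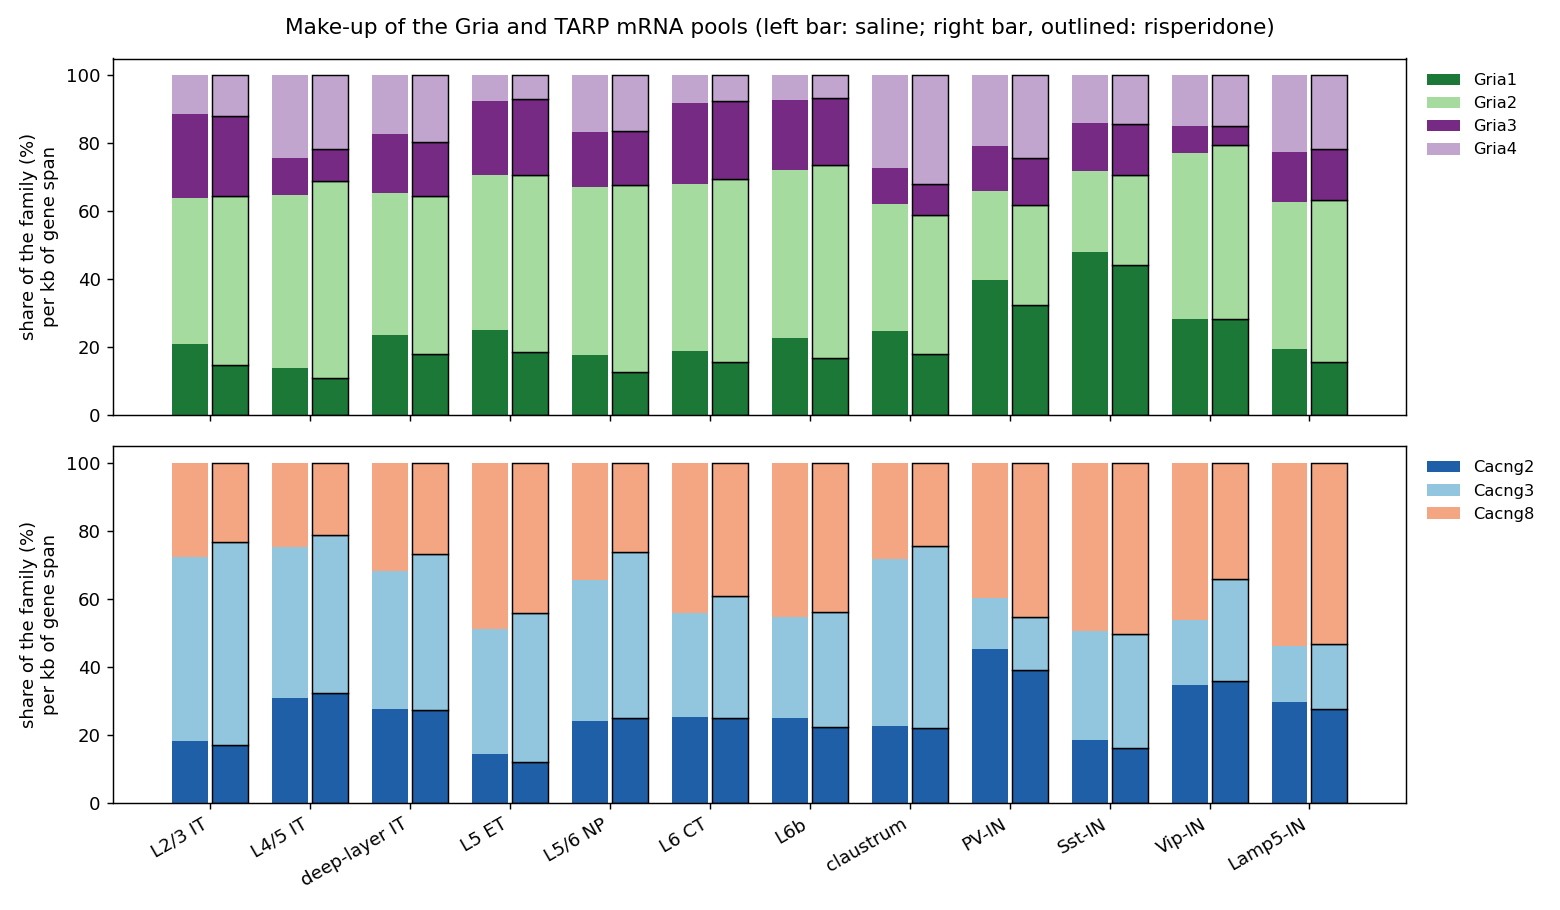
Share of each gene in its family, in percent of the summed CPM per kb of gene span, for 8 glutamatergic and 4 interneuron types, with saline on the left and risperidone outlined on the right. Gria1 takes the largest part in PV-INs (39.9% in saline) and Sst-INs (48.0%), and is smaller in the risperidone bar of both and of all 8 glutamatergic types.

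For each gene the 3 genes with the most similar levels over the 18 classes and types in saline were found by Pearson's r of log2(CPM + 1), among 11611 candidates. They were Ttll11 (r = 0.90), Rbfox1 and Dlgap2 for Gria1, and Nrcam (0.85), Sybu and Cacnb1 for Gria2. For Gria3 they were Rbfox1 (0.85), 1700084C06Rik and Iqgap2, and for Gria4 Adam22 (0.80), 0610010F05Rik and Kcnc1. Mmp24 (0.96) and Meg3 were among those of Cacng2. Cacng3 was matched by Dmtn (0.93), Bsn and Add2, and Cacng8 by Gm44257 (0.90), Sbk1 and Ctnnd2. Among the 7 themselves, Cacng2 was most like Gria1 (0.82) and Gria4 was not like Gria2 (0.00). These values are descriptions over classes of the same 2 libraries.

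The pools were compared to ask how the AMPA receptor genes stood in adult cortex after adolescent risperidone. UMIs of a class were added over the lanes of a pool and expressed as a log2 ratio of risperidone to saline, scaled by TMM factors, and lane levels in what follows are CPM on that scale. Summed markers of other classes and levels per kb are in plain CPM, without those factors. A gene counts as past the size rule when the absolute log2 ratio is at least 0.5, both risperidone lanes lie beyond both saline lanes, and its mean is at least 10 CPM. In glutamatergic neurons 1 of the 7 genes, Cacng8, was past the rule, and it was lower with risperidone. Of all 7181 genes tested there 6.64% were lower and 4.54% higher by the same rule. Lanes of the pools lay apart for 6 of the 7 genes, and for 88.0% of all genes. The split of all calls depended on the scaling, with 59.4% of them lower under TMM, 65.1% under DESeq2 size factors and 36.1% under plain CPM, whereas none of the 7 genes was past the rule upward in any class under TMM.

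Cacng8 in glutamatergic neurons was at 77.0 and 75.6 CPM in saline and 50.2 and 50.5 CPM in risperidone, and the lanes did not overlap. Its log2 ratio was -0.60 (-0.64 to -0.55), with 3.94% of all genes lower. Cacng8 shares its locus with the antisense gene Gm44151 on the opposite strand, whose UMIs in these neurons were 491 in saline and 2079 in risperidone, a log2 ratio of 1.14 at a mean under 10 CPM. Cell Ranger counts by strand, and the part of one in the other was not tested.

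Gria1 was at 1522 and 1508 CPM in saline and 1071 and 1095 CPM in risperidone, a log2 ratio of -0.48 (-0.49 to -0.47), just short of the rule (past it at -0.50 with DESeq2 size factors), with 7.37% of all genes lower. Cacng2 was at 254 and 247 CPM against 193 and 202 CPM (-0.34, -0.36 to -0.31). Both were lower in each risperidone lane than in each saline lane. Oligodendrocyte markers in glutamatergic neurons were at 156 and 157 CPM in saline against 118 and 118 CPM, and markers of oligodendrocyte precursors at 1179 and 1200 against 974 and 987 CPM. With the estimated RNA of other cells taken out, Gria1 was at -0.52 and Cacng8 at -0.63. That estimate rests on oligodendrocyte markers and on a profile that includes glutamatergic nuclei, so these ratios are not cleared of such RNA.

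The median of all genes was -0.01. Gria2 was at 1129 and 1156 CPM in saline and 1324 and 1332 CPM in risperidone, a log2 ratio of 0.22 (0.20 to 0.23), with lanes apart. Gria4 was at 0.11 (0.09 to 0.12) and Cacng3 at -0.09 (-0.11 to -0.07), against 0.19 and -0.001 under plain CPM, and Gria4 was at -0.02 in male nuclei. Gria3 was at 1138 and 1148 CPM against 1102 and 1151 CPM, with overlapping lanes, and its log2 ratio of -0.02 turned to 0.07 under plain CPM. Within the family, per kb of span, Gria1 was 22.4% of the subunit RNA in saline and 15.8% in risperidone, and Gria2 44.4% and 50.8%.

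In PV-INs 1 of the 7 genes was past the size rule, where 8.41% of 7423 genes were lower and 8.42% higher by it. Of all calls 50.0% were lower under TMM and 33.9% under plain CPM. The gene past the rule was Cacng2, at 439 and 473 CPM in saline and 290 and 307 CPM in risperidone, a log2 ratio of -0.61 (-0.71 to -0.52). In saline it was the largest of the 3 TARPs per kb of span in these cells. In risperidone Cacng8 was larger per kb of span, at 2.82 and 2.78 CPM per kb against 2.34 and 2.43 for Cacng2. Per kb of merged exons Cacng2 stayed the larger there, at 54.48 and 56.67 CPM per kb against 30.04 and 29.57 for Cacng8. These levels per kb are in plain CPM, and the change of order depended on the length used. Gria1 was at 3483 and 3400 CPM against 2698 and 2697 CPM (-0.35, -0.38 to -0.32), and Gria4 at 2038 and 2195 CPM against 2472 and 2324 CPM (0.16, 0.12 to 0.20), each without overlap. Gria2 was at 0.11 (0.05 to 0.18), Gria3 at 0.03 (-0.03 to 0.09) and Cacng8 at -0.21 (-0.43 to 0.01). Cacng3 was at -0.35 (-0.53 to -0.17), and at -0.20 once the estimated RNA of other cells was taken out. The summed glutamatergic markers in PV-INs were at 92 and 96 CPM in saline and 49.5 and 59.7 CPM in risperidone, and oligodendrocyte markers at 93.8 and 99.1 against 50.4 and 49.0 CPM. In plain CPM, without TMM scaling, astrocyte markers there were at 486 and 475 against 489 and 495 CPM. The Cacng2 ratio was -0.67 after the estimated RNA of other cells was taken out.

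In Sst-INs none of the 7 genes was past the rule, where 7.24% of 7352 genes were lower and 6.83% higher, which puts 51.5% of the calls lower under TMM against 31.8% under plain CPM. Cacng2 came closest, at 273 and 271 CPM in saline and 191 and 196 CPM in risperidone, a log2 ratio of -0.49 (-0.63 to -0.35). Gria1, at 4779 and 4889 CPM against 4282 and 4377 CPM, had a log2 ratio of -0.16 (-0.19 to -0.13). Gria2 was at 0.11 (0.04 to 0.18), Gria3 at 0.03 and Gria4 at -0.00, the last pair with overlapping lanes. Cacng3 was at -0.22 (-0.34 to -0.10) and Cacng8 at -0.26 (-0.45 to -0.07). RNA of other cells moved with these ratios, at an estimated 13.1% and 14.2% of the UMIs in saline and 6.78% and 8.36% in risperidone. Summed glutamatergic markers in Sst-INs were at 89.6 and 90.1 against 38.4 and 55.0 CPM, oligodendrocyte markers at 92.2 and 106 against 49.0 and 51.5 CPM, and astrocyte markers at 238 and 259 against 149 and 159 CPM.

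Over the 8 glutamatergic types the direction was the same for 5 of the 7 genes. The share of all genes with the same direction in all 8 was not counted. The types came from the same pools, so they are not independent repeats. Gria1 was lower in all 8, from -0.45 in L2/3 IT to -0.20 in L6 CT neurons, and Gria2 was higher in all 8, from 0.14 to 0.27, with lanes apart each time. Cacng2 and Cacng8 were lower in all 8 with lanes apart, and Cacng3 was lower in all 8 with lanes apart in 4. Gria3 and Gria4 were above 0 in 4 types and below it in 4. Under plain CPM the directions of Gria1, Gria2, Cacng2 and Cacng8 were the same in all 8 types, whereas Cacng3 was above 0 in 2 (L5 ET, 0.01, and L6 CT, 0.04), Gria3 in 5 and Gria4 in 6. Of all genes, the share below 0 was 48.9% in L2/3 IT, 50.3% in L4/5 IT, 51.5% in deep-layer IT, 49.9% in L5 ET, 53.4% in L5/6 NP, 50.8% in L6 CT, 46.2% in L6b and 49.1% in claustrum nuclei. In the same order the lanes lay apart for 82.3%, 72.5%, 75.1%, 67.9%, 62.0%, 70.7%, 54.1% and 54.4% of all genes. The claustrum class, where Gria4 was highest, also had the largest Gria4 ratio of the 8 types, 0.35 (0.31 to 0.40), at 2513 and 2312 CPM in saline and 2857 and 3255 CPM in risperidone.

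Under TMM, past the size rule were Cacng8 in L2/3 IT (-0.53), deep-layer IT (-0.61) and L5/6 NP neurons (-0.80), where 8.09%, 7.18% and 6.54% of all genes were lower by the rule, and Cacng2 in L5 ET neurons (-0.55, beside 8.0%). Under plain CPM the calls of Cacng8 in L2/3 IT (-0.46) and of Cacng2 in L5 ET neurons (-0.49) were lost. In L5/6 NP neurons Cacng8 was at 66.6 and 58.2 CPM in saline and 36.2 and 34.9 CPM in risperidone. None of the genes was past it in L4/5 IT (6.08% of genes lower), L6 CT (6.79%), L6b (9.91%) or claustrum nuclei (9.46%). Upward, where none of the 7 genes was past the rule, the shares of all genes were 6.65% in L2/3 IT, 5.57% in L4/5 IT, 5.21% in deep-layer IT, 6.68% in L5 ET, 5.1% in L5/6 NP, 5.59% in L6 CT, 11.3% in L6b and 9.27% in claustrum nuclei.

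Among the other interneurons, Vip-INs had Gria3 and Cacng8 past the rule, beside 8.29% of all genes lower. Gria3, already lowest in these cells, was at 317 and 333 CPM in saline and 223 and 233 CPM in risperidone (-0.51, -0.68 to -0.34, and -0.47 and short of the rule under plain CPM), and Cacng8 was at 67.8 and 67.6 CPM against 35.4 and 35.6 CPM (-0.93, -1.34 to -0.52). Gria1, by contrast, had overlapping lanes in Vip-INs (-0.06, -0.14 to 0.02). RNA of other cells was not estimated in Vip-INs or Lamp5-INs, and its part in their ratios was not tested. In Lamp5-INs Cacng2 was past the rule at -0.54 (-0.70 to -0.38), beside 7.17% of genes lower. Striatal spiny projection neurons had Cacng2 at -0.55 (-0.70 to -0.39), beside 9.5%, and Gria1 at -0.04 (0.07 under plain CPM) with lanes of 2499 and 2491 CPM against 2353 and 2469 CPM. Both Cacng2 calls were lost under plain CPM, at -0.48 and -0.44. Upward, the shares of all genes past the rule were 9.18% (Vip-INs), 9.45% (Lamp5-INs) and 6.6% (striatal neurons).

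**Figure D3:**
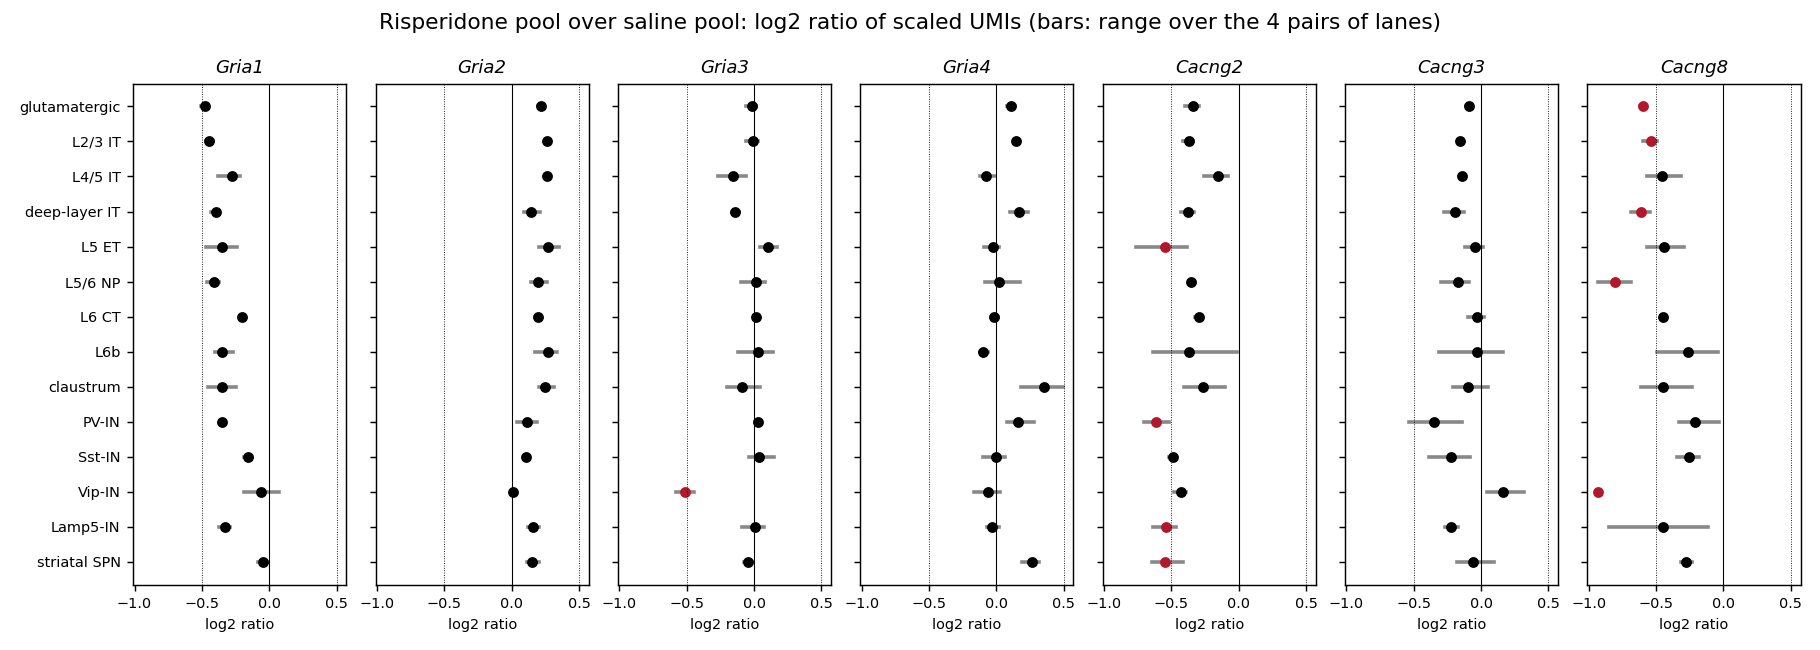
Log2 ratio of the risperidone to the saline pool for each gene in 14 classes and types of neurons, with bars for the range over the 4 pairs of lanes, dotted lines at -0.5 and 0.5 and red points for genes past the size rule. Gria1, Cacng2 and Cacng8 lie left of 0 in every row shown and Gria2 lies right of it, of which Gria1 in striatal neurons turns under plain CPM (0.07), while Gria3 and Gria4 lie on both sides.

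Over all nuclei, with or without a class, Cacng8 alone was past the rule (-0.58, -0.61 to -0.55), beside 7.39% of 7526 genes lower and 2.92% higher, with 71.6% of the calls lower under TMM and 36.8% under plain CPM. Its lanes were at 81.7 and 82.5 CPM against 55.1 and 54.6 CPM. Gria1 was at -0.46 and Cacng2 at -0.41. The median of all genes was -0.06 here and 0.06 under plain CPM, under which Cacng8 missed the rule.

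In non-neuronal nuclei most of the 7 genes were lower in the risperidone pool. No common floor of UMIs was set for these nuclei. The shallowest nucleus listed had 1364 and 1630 UMIs in the saline lanes, against 500 in either risperidone lane. None of the 7 genes was past the rule upward, where 8.38% of all genes were in astrocytes, 15.2% in oligodendrocytes, 10.1% in their precursors, 22.9% in endothelial nuclei and 16.5% in mural cells and fibroblasts. In astrocytes 5 were past the rule, beside 14.4% of 8164 genes lower. Gria4 was at 374 and 407 CPM in saline and 155 and 160 CPM in risperidone (-1.31, -1.45 to -1.18), and Gria3 at -1.22. Gria2 was at 1316 and 1364 CPM against 1365 and 1345 CPM (0.01, -0.04 to 0.07). Neuronal RNA moved with these values: the summed markers of glutamatergic neurons in astrocytes were at 216 and 210 CPM in saline and 107 and 110 CPM in risperidone, and their part in the result was not tested.

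In oligodendrocytes all 7 genes were past the rule, beside 19.7% of genes lower, with Gria1 at 530 and 574 CPM against 152 and 168 CPM (-1.79). The oligodendrocytes had medians of 1710.5 and 2294 UMIs in saline and 1095 and 1408.5 UMIs in risperidone. Glutamatergic markers in these nuclei were at 306 and 238 CPM against 128 and 136 CPM, and markers of oligodendrocyte precursors at 2435 and 1914 CPM against 972 and 395 CPM. Their part in the result was not tested. Oligodendrocyte precursors had 3 genes past it (Gria1, Cacng2 and Cacng3), beside 12.1%, with glutamatergic markers at 192 and 212 against 103 and 96.4 CPM. In plain CPM, without TMM scaling, astrocyte markers there were at 6279 and 6567 against 6284 and 6505 CPM. In the precursors the other subunits lay closer to 0, with Gria2 at 0.06, Gria4 at -0.16 and Gria3 at -0.30. In endothelial nuclei 6 were past the rule (13.0% of genes lower) and in mural cells and fibroblasts 5 (15.3%). Cacng8 rested on 4 and 3 UMIs in the pools in the former and on 10 and 2 in the latter. Cacng2 in endothelial nuclei had 3 and 2 UMIs in the saline lanes, which held 38 and 26 such nuclei, and 2 and 1 in the risperidone lanes. Cacng8 in oligodendrocytes had 2 and 20 UMIs in the risperidone lanes. Neuronal markers in endothelial nuclei, mural cells and fibroblasts are not given.

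Each pool held both sexes, and nuclei were also compared by sex. A nucleus with Xist UMIs in which no Y-linked marker gene was counted was called female, and the opposite case male. Such calls are uncertain, since both kinds of UMIs were often found in a single nucleus. Of the glutamatergic nuclei with at least 2 Y-linked UMIs, 31.1% and 37.3% of those from saline, by lane, and 24% and 29.8% of those from risperidone also held Xist. Although each pool had as many males as females, 37.7% and 39% of all glutamatergic nuclei in saline were called female and 21.8% and 22.2% male, with 26.1% and 21.6% holding neither kind of UMI. In risperidone 54.2% and 53.1% were called female and 23.4% and 24.7% male, and 11.5% and 7.5% held neither. Of the female calls, 39.4% and 33.6% rested on 1 Xist UMI in saline, against 12.3% and 8.12% in risperidone. In glutamatergic neurons called female, which were 3034 and 3622 nuclei in saline and 5837 and 5704 in risperidone, 3 genes were past the size rule, beside 8.83% of genes lower. Gria1 was at 1679 and 1658 CPM in saline and 1030 and 1046 CPM in risperidone (-0.68, -0.70 to -0.67), Cacng2 at 290 and 287 CPM against 195 and 204 CPM (-0.52), and Cacng8 at 83.3 and 85.4 CPM against 50.2 and 51.6 CPM (-0.73).

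In those called male, 1754 and 2061 nuclei in saline and 2516 and 2650 in risperidone, none was past it, beside 6.47% of genes lower. Gria1 was at 1296 and 1328 CPM against 1150 and 1140 CPM (-0.20, -0.22 to -0.18), Cacng2 at 201 and 208 CPM against 190 and 198 CPM (-0.08, -0.13 to -0.02), and Cacng8 at 69.1 and 63.9 CPM against 49.1 and 48.5 CPM (-0.44, -0.53 to -0.34). All 3 were lower in both sexes with lanes apart. Lanes lay apart for 88.0% of all genes in glutamatergic neurons of both sexes together, and that share is not given by sex. When at least 3 Xist UMIs or 2 Y-linked UMIs were asked for, a stricter call added after seeing the data, Gria1 was at -0.67 in females and -0.19 in males, Cacng8 at -0.72 and -0.34, and Cacng2 at -0.56 and 0.01, with overlapping lanes for Cacng2 in males. For Gria1 and Cacng2 the female saline lanes lay above the male saline lanes, whereas the female risperidone lanes lay below the male ones for Gria1 and overlapped them for Cacng2. Depth differed as well: in saline, male nuclei had medians of 5171 and 6370 UMIs and female nuclei 4219.5 and 5070.5 UMIs. In risperidone, male nuclei had 6424 and 8672.5 UMIs and female nuclei 6128 and 8481.5 UMIs.

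PV-INs also had larger ratios of Gria1 and Cacng2 in females. Gria1 was at 3757 and 3804 CPM in female saline nuclei and 2611 and 2613 CPM in female risperidone nuclei (-0.53), against 3039 and 2960 CPM and 2766 and 2913 CPM in males (-0.07, -0.13 to -0.01). Cacng2 was at -0.74 in females and -0.22 in males. Gria4 had overlapping lanes in female PV-INs (0.08), and in males it was at 1840 and 2166 CPM against 2641 and 2634 CPM (0.38, 0.30 to 0.45). In PV-INs called female 3 genes were past the rule (Gria1, Cacng2 and Cacng3), beside 10.7% of genes lower, and in those called male none, beside 10.1%. Under the stricter call only Cacng2 (-0.68) was past it in females, while Gria1 was at -0.38 in females and 0.09 in males.

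In Sst-INs Gria1 was at -0.33 (-0.38 to -0.28) in females and 0.21 (0.15 to 0.27) in males, with overlapping lanes in males, of which saline lane 1 held 48 nuclei. Cacng2 was past the rule in female Sst-INs (-0.60), beside 8.71% of genes lower, and at -0.09 in males, where none was, beside 7.77%. Under the stricter call Cacng2 was at -0.53 in females and 0.12 in males, and Cacng8 was past the rule in males (-0.54). The difference between the sexes was not tested, since each sex of each pool is a single sample of 5 mice.

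**Figure D4:**
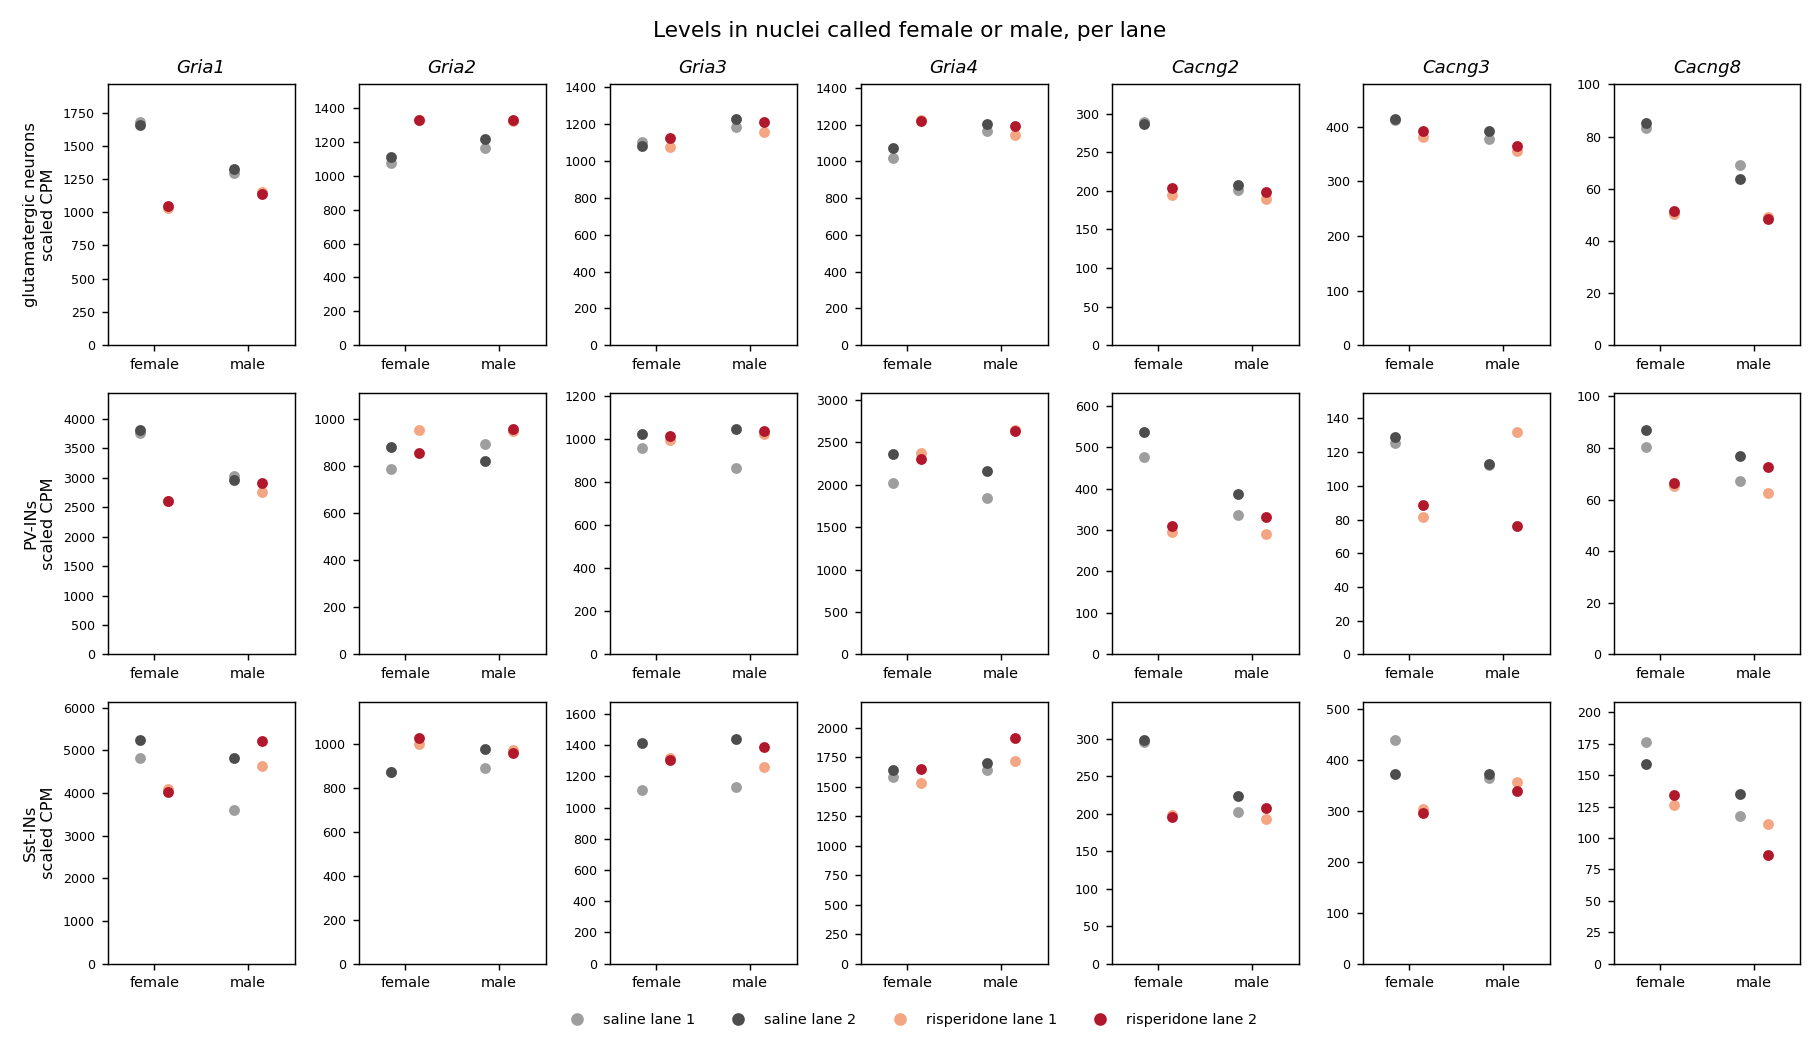
Level of each gene in CPM after TMM scaling (axes start at 0) in nuclei called female or male, per lane. The rows are, from the top, glutamatergic neurons, PV-INs and Sst-INs. In glutamatergic neurons the female saline lanes of Gria1 (1679 and 1658 CPM) and Cacng2 (290 and 287 CPM) stand above the other 3 pairs of points, and the risperidone lanes of Gria1 run from 1030 to 1150 CPM over both sexes.

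Depth also differed between the pools, so nuclei of 3000 to 6000 UMIs were compared alone, which narrowed the gap without closing it. In that window the female glutamatergic nuclei had medians of 4276 and 4444 UMIs in saline and 4837 and 4965 UMIs in risperidone. In glutamatergic neurons of that window Cacng8 was at -0.92 and Gria1 at -0.76, both further from 0 than over all depths, and Gria3 was at -0.28 in place of -0.02. In the female nuclei of that window Gria1 was at -0.94, Cacng2 at -0.52 and Cacng8 at -0.96, and in the male nuclei at -0.43, -0.34 and -0.79. Over all depths the male nuclei had Gria1 at -0.20, Cacng2 at -0.08 and Cacng8 at -0.44. The female ratio of each was still the lower one in the window, but for Cacng2 and Cacng8 the sexes lay closer together there, with Cacng8 in males at -0.79 in place of -0.44. With all nuclei thinned to 1500 UMIs, Gria1 was at -0.55 and Cacng8 at -0.81.

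The wider AMPA receptor pathway was described by 36 other genes in 5 lists. Of 12 other auxiliary subunits, 8 could be compared in glutamatergic neurons, and 5 of them were past the size rule downward with none upward. Their median log2 ratio was -0.54, against -0.01 for all genes. Shisa6 was at 164 and 168 CPM in saline and 82.9 and 86.7 CPM in risperidone (-0.97). Cnih3, a cornichon that slows receptor gating, was at 126 and 125 CPM against 65.6 and 66.1 CPM (-0.93). Shisa9, which encodes CKAMP44, was at 626 and 636 CPM against 341 and 349 CPM (-0.87). Cacng7 (-0.55), also a TARP, and Shisa7 (-0.53) followed, and both fell short under plain CPM (-0.46 and -0.44), which left 3 of 8. Of all 7181 genes, 477 were lower under TMM and 293 under plain CPM. Gsg1l was at -0.43, Syndig1 at -0.15 and Prrt1 at 0.15. Of Cacng4, Cacng5, Cnih2 and Shisa8, none reached a mean of 10 CPM.

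In PV-INs 5 of 8 comparable auxiliary subunits were past the rule downward (Shisa6 -1.03, Cnih3 -0.70, Shisa9 -0.66, Gsg1l -0.66 and Shisa7 -0.55), with a list median of -0.61 against 0.00 for all genes. Under plain CPM 4 of them were, without Shisa7 (-0.48), and of all 7423 genes 441 were lower, against 624 under TMM. Shisa9 was at 821 and 803 CPM in saline and 509 and 516 CPM in risperidone. In Sst-INs 1 of 10 was past the rule, Cnih3 at -0.58 (-0.92 to -0.23), with a list median of -0.31 against -0.02, and under plain CPM none was (Cnih3 at -0.49). Of all 7352 genes there, 532 were lower under TMM and 344 under plain CPM. The low levels of Cnih3 in Sst-INs, 48.1 and 48.3 CPM against 31.4 and 33.0 CPM, rest on 133 and 147 UMIs.

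The 6 biogenesis factors, a list of genes linked to receptor assembly in the endoplasmic reticulum, had no gene past the rule in any of the 3 classes under TMM. Their medians were 0.13 (PV-INs), 0.17 (glutamatergic neurons) and 0.28 (Sst-INs). In glutamatergic neurons Porcn was at 19.0 and 18.7 CPM against 25.9 and 25.2 CPM (0.44, and 0.52 and past the rule upward under plain CPM), Sacm1l at 0.35 and Frrs1l at 0.05.

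Of the 6 trafficking and anchoring partners, Grip1 and Grip2, scaffolds that bind the C-termini of Gria2 and Gria3 products, were past the rule downward in glutamatergic neurons. Grip1 was at 497 and 473 CPM in saline and 298 and 309 CPM in risperidone (-0.67, -0.69 to -0.65), and Grip2 at -0.50 on levels of 17.1 to 11.3 CPM (-0.42 and short of the rule under plain CPM). Epb41l1, whose product binds the Gria1 product, was at -0.47, and Nsf and Pick1 were at -0.03 and 0.02. None of the 6 was past the rule in PV-INs, and Akap5 was in Sst-INs (-0.79, -1.23 to -0.34, on 89 and 85 UMIs).

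The extracellular clustering factors had none of 9 comparable genes past the rule in glutamatergic neurons (median 0.10) and none of 6 in PV-INs (median -0.09). In Sst-INs 1 of 6 was (Olfm2, -0.54, -0.72 to -0.36, but -0.46 under plain CPM, median of the list -0.18). Lrrtm1 was at 0.39 in glutamatergic neurons, at 11.02 and 10.96 CPM in saline and 14.7 and 14.1 CPM in risperidone. Of the RNA editing enzymes, Adarb1, whose product edits the Gria2 codon shown above, was at 159 and 161 CPM in saline and 123 and 129 CPM in risperidone in glutamatergic neurons (-0.34, -0.38 to -0.31), and at -0.36 (-0.54 to -0.18) in Sst-INs. In PV-INs it was at -0.01 (-0.13 to 0.11). Adar was at -0.19, -0.09 and -0.09.

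Over all lists, 7 of 31 comparable genes were past the rule downward in glutamatergic neurons, beside 6.64% of all genes. The counts were 5 of 28 for PV-INs, beside 8.41%, and 3 of 30 for Sst-INs, beside 7.24%, and none of these genes was past it upward under TMM. Under plain CPM 4 in glutamatergic neurons, 4 in PV-INs and 1 in Sst-INs were past it downward, and 1 in glutamatergic neurons, Porcn, upward. With that scaling, 293 of all 7181 genes tested in the glutamatergic class were past the rule downward and 518 upward. For PV-INs these counts were 441 and 859 of 7423 genes, and for Sst-INs they were 344 and 738 of 7352.

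**Figure D5:**
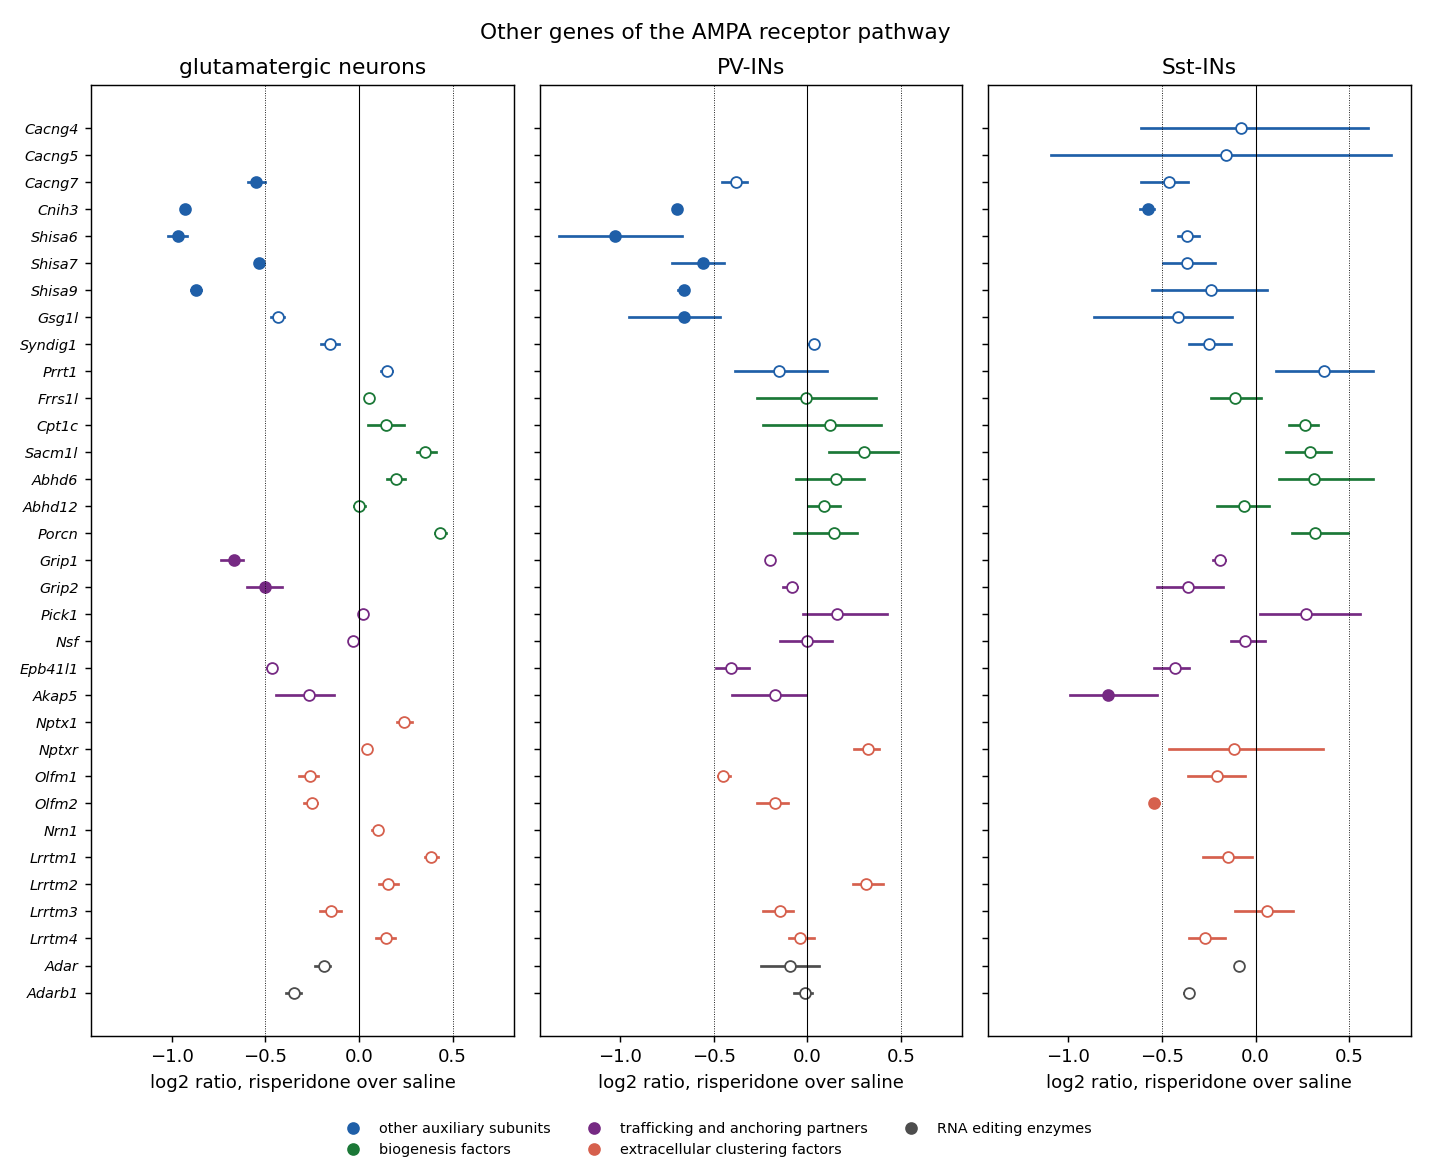
Log2 ratio of risperidone to saline for the other genes of the AMPA receptor pathway that reached 10 CPM, with a panel for each of the 3 classes, coloured by list, with bars for the range over pairs of lanes, dotted lines at -0.5 and 0.5 and filled points for genes past the size rule. Filled points lie left of -0.5 and are mostly auxiliary subunits, and the biogenesis factors lie around or right of 0.

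Antisense to Cacng2 lies A730060N03Rik, which was at -0.39 in glutamatergic neurons (4006 and 5881 UMIs in the pools), beside -0.34 for Cacng2.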

How the data were processed

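Nuclei of 2 Chromium lanes per pool were sequenced and, per the labels and the study's methods, the authors counted UMIs with Cell Ranger 8.0.1 against mm10 with intronic reads. The deposited matrices hold raw counts of UMIs per gene and nucleus. Values were checked to be whole. The 7 genes, the gene lists and the tests were chosen with earlier results of these data known.

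Kept were nuclei in which 500 genes or more were detected and the mitochondrial share of UMIs did not exceed 5%, and nuclei that resembled simulated doublets (9.38% to 12.0% per lane) were removed. Classes were set from 120 marker genes by a negative binomial mixture per lane, and the scoring rule was set after marker levels had been seen. UMIs were summed per class and lane, and the lanes of a pool added. Ratios were scaled with edgeR 4.0.16 TMM factors in R 4.3.3, and the rule applied to genes averaging 10 CPM or more. Intervals at 95% are exact Poisson for levels, conditional binomial for ratios and Clopper-Pearson for shares. The size rule was tested on simulated Poisson counts drawn from a common mean profile with known changes. Differences between pools in depth of nuclei, RNA of other cells or mice were not simulated, so the test does not cover them. Lengths and sequences came from GENCODE vM21 on GRCm38, which held 32235 of 32285 gene identifiers. Genes named are the 7, those of the pathway lists, antisense genes and the 3 closest genes in level to each of the 7, of which 1 is not reported here.

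Alternatives were plain CPM, DESeq2 1.42.0 size factors, a minimum of 1 or 50 CPM, leaving out each lane, no doublet removal, a wider class margin, thinning to 1500 UMIs, nuclei of 3000 to 6000 UMIs, each sex with a looser or stricter call, RNA of other cells taken out, and layer types weighted equally. Python 3.11.15 (pandas 2.3.3, numpy 2.4.6, scikit-learn 1.9.0, scipy 1.17.1, matplotlib 3.10.9) was used.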

Additional observations from a re-analysis of the deposited data

Results flagged for a closer look

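In 10 cases the log2 ratio of female to male nuclei had 1 sign in both saline lanes and the opposite sign in both risperidone lanes. These were 3 of the 7 genes over all nuclei, where the same was found for 30.9% of all genes tested, 3 for glutamatergic neurons (29.6%), 2 for PV-INs (14.9%) and 2 for Sst-INs (13.6%). The difference was not tested, since each sex of a pool is 1 sample whose 5 mice cannot be told apart. In glutamatergic neurons the male nuclei were deeper than the female nuclei in every lane, by more in saline. More of the female calls rested on 1 Xist UMI in saline than in risperidone. The part of depth and of the calls in these signs was not tested. For Gria1 the ratio over all nuclei was 0.32 in saline and -0.092 in risperidone. It was 0.33 and -0.12 for glutamatergic neurons, 0.30 and -0.090 for PV-INs, and 0.20 and -0.25 for Sst-INs, so that female nuclei were above male nuclei in the saline pool in each. For Cacng2 over all nuclei it was 0.32 and -0.012. For Gria2 the signs were the other way round, with -0.097 and 0.032 over all nuclei, -0.14 and 0.021 for glutamatergic neurons, and -0.15 and 0.13 for Sst-INs. For Gria4 it was -0.20 and 0.077 for glutamatergic neurons and 0.087 and -0.14 for PV-INs. The intervals that cover counting error, at 95%, were 0.31 to 0.35 and -0.14 to -0.11 for Gria1 in glutamatergic neurons.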

How the results depend on the processing

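No paired analysis was possible because the lane numbers mark technical runs of 1 pool per condition and no value comes from a test. The comparisons by sex within 3000 to 6000 UMIs and with the stricter call were added after seeing the data. No ratio past the size rule changed direction in the classes recomputed. Gria1 in Sst-INs, at -0.16, was at 0.21 in male nuclei and reached 0.33 over all alternatives, of which 17 of 19 kept its sign. Counts of the 7 genes past the rule are given with the share of all genes lower by it under the same setting, which rose in many of them. Over all nuclei the count (1, beside 7.39%) became 0 under plain CPM (3.51%) and in male nuclei by either call (6.88% and 6.15%). It became 3 within 3000 to 6000 UMIs (10.1%), in female nuclei by either call (9.47% and 9.02%) and in female nuclei of that window (10.3%). In glutamatergic neurons (1, beside 6.64%) it became 2 with DESeq2 size factors (7.45%), thinning (8.25%), 3000 to 6000 UMIs (11.4%) or RNA of other cells taken out (7.26%). It became 3 in female nuclei by either call (8.83% and 8.98%) or in that window (12.6%), and 0 in male nuclei by either call (6.47% and 6.16%). In PV-INs (1, beside 8.41%) it became 3 in female nuclei (10.7%, and 12% in that window) but 1 by the stricter call (8.85%), and 0 in male nuclei (10.1%, 14.6% in that window and 9.86% by the stricter call). In Sst-INs (0, beside 7.24%) it became 1 without doublet removal (7.49%), with the wider margin (7.16%), with thinning (11.1%), within 3000 to 6000 UMIs (10.7%), in female nuclei by either call (8.71% and 8.22%), and in male nuclei of that window (11.6%) or by the stricter call (8.54%). It became 2 in female nuclei of that window (12.2%). Pathway genes past the rule, higher or lower, are given with the shares of all genes lower and higher. In PV-INs (5, beside 8.41% and 8.42%) they became 8 at 1 CPM (11.5% and 15.6%), 2 at 50 CPM (6.99% and 3.15%), 9 within 3000 to 6000 UMIs (13.5% and 10.5%), 1 in male nuclei (10.1% and 12.8%) and 9 in female nuclei of that window (12% and 15.0%). In Sst-INs (3, beside 7.24% and 6.83%) they became 1 under plain CPM (4.68% and 10.0%) and at 50 CPM (5.64% and 1.79%), 5 at 1 CPM (9.83% and 15.0%) and with thinning (11.1% and 12.4%), and 7 within 3000 to 6000 UMIs (10.7% and 12.7%). They became 8 in female nuclei by either call (8.71% and 13.3%, and 8.22% and 17.9%), and 7 and 8 in female and male nuclei of that window (12.2% and 15.2%, and 11.6% and 17.1%). In glutamatergic neurons (7, beside 6.64% and 4.54%) they stayed between 5 and 10. The cause was not tested.

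Leaving out 1 lane left 1 of the 7 genes past the rule in PV-INs, glutamatergic neurons and all nuclei alike, and 0 to 1 in Sst-INs, where it was 1 without risperidone lane 2. Pathway genes ranged from 6 to 7 in glutamatergic neurons, 4 to 5 in PV-INs and 3 to 10 in Sst-INs, where they were 6 without saline lane 2 and 10 without risperidone lane 2 (11.2% of all genes lower and 7.82% higher). Over all alternatives the Gria1 ratio in glutamatergic neurons ranged from -0.94 to -0.19, that of Cacng8 from -0.96 to -0.34 and that of Cacng2 in PV-INs from -0.96 to -0.07. Cacng3 in PV-INs ranged from -0.57 to 0.49. The gap in depth and in RNA of other cells between the pools limits these values, as do the nuclei without a class.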
